A study of Mus musculus with 100 samples.

Results

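The 8 genes Cd80, Cd86, Icosl, Cd40, Cd83, Cd274, Pdcd1lg2 and Cd200 encode surface proteins through which macrophages and other antigen-presenting cells costimulate or restrain T cells and myeloid cells. Their loci were followed through ChIP-seq of 8 factors and of the histone mark H3K27ac. Every region that the 15 tables of tag counts assign to one of these gene names by its nearest transcription start site (TSS) was taken, which gave 821 of 610301 regions, and 8 of 18524 gene names. Cd83 held 181 of the regions, Pdcd1lg2 138, Cd200 134, Cd274 101, Cd86 97, Icosl 81, Cd40 65 and Cd80 24. Assignment to the nearest start site does not show that a region acts on that gene.

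The factors were NCoR, a nuclear receptor corepressor, its partner deacetylase HDAC3, the coactivators PGC1b and p300, the kinase ERK1, and the transcription factors p65 (the NFkB subunit RelA), Fosl2 (an AP-1 subunit) and PU.1 (the lineage-determining factor of macrophages). They were profiled in wild type bone marrow-derived macrophages that received vehicle (Veh) or Kdo2 lipid A (KLA), an agonist of TLR4 (treatment of 6 h, in those labels that state one). The sample descriptions name the strain C57Bl6 throughout, and they call the p300 libraries labelled Veh KLA at 0 h, so that whether they received vehicle for 6 h is not known. H3K27ac was profiled with Veh or KLA in NCoR flox/flox macrophages, here called WT, in NCoR flox/flox, LysMCre macrophages (NKO), and in PGC1b flox/flox macrophages without or with LysMCre. It was also profiled in wild type macrophages given DMSO with Veh, DMSO with KLA, or the HDAC3 inhibitor RGFP966 with KLA. PGC1b was profiled with DMSO and Veh, DMSO and KLA, or the ERK inhibitor LY3214996 (ERKi) and KLA, and NCoR with Veh, KLA, or ERKi and KLA. ERK1 and p300 were also profiled in cells labelled wild type at day 0 and day 4 of culture with the osteoclast-inducing cytokine RANKL. Per the paper, these were osteoclast precursors that had first been grown from bone marrow with the cytokine M-CSF. The descriptions tag both ERK1 libraries of day 0 and replicate 1 of day 4 as NCoRWT, but not replicate 2 of day 4. Whether the tagged libraries came from NCoR flox/flox mice is not stated. LysM-Cre deletes the floxed gene in cells that express lysozyme M, which are mainly myeloid cells, and tags over regions do not measure how complete that deletion was. Each group held 2 libraries, labelled as replicates without saying whether they came from separate animals, so that p-values measure only the spread between these libraries.

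As background, a T cell that recognises antigen needs a further signal from the cell presenting it. CD80 and CD86 give that signal through CD28 and are bound by the inhibitory receptor CTLA4, ICOS ligand (Icosl) binds ICOS, CD40 receives help from CD40 ligand on T cells, and CD83 marks activated antigen-presenting cells. PD-L1 (Cd274) and PD-L2 (Pdcd1lg2) restrain T cells through PD-1, and CD200 restrains myeloid cells through the CD200 receptor. Toll-like receptor signalling through NFkB, AP-1 and interferon is known to raise many of these ligands in macrophages. NCoR and HDAC3 are known as corepressors, p300 acetylates H3K27, and H3K27ac marks active enhancers and promoters.

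The sequences at the centres of 9 sites that are followed below are printed for reference. They were read from the + strand of mm10, 200 bases each (151 bases for Cd80, ending at the base before the RefSeq start of the gene). Capitals mark matches, on either strand, to the NFkB consensus, to the AP-1 motif TGANTCA, to the PU.1 motif AGGAAGT, to the interferon response element GAAANNGAA or to the STAT site (GAS) TTCNNNGAA. The site names give the distance from the TSS that the tables use.

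Cd80 -1.6 kb, chr16:38457279-38457429: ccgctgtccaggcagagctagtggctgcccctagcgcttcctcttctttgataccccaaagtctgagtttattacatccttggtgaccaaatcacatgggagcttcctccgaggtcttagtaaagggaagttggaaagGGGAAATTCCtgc
Cd86 +39.0 kb, chr16:36626959-36627158: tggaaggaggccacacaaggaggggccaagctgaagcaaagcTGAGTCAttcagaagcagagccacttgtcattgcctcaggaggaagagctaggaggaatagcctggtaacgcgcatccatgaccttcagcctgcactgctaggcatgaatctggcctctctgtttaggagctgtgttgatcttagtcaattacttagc
Icosl +17.9 kb, chr10:78087211-78087410: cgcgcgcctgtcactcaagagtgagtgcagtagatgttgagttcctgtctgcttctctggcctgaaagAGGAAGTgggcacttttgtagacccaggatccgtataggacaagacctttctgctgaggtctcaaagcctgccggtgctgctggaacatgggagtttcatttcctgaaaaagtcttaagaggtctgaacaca
Cd40 -6.0 kb, chr2:165049572-165049771: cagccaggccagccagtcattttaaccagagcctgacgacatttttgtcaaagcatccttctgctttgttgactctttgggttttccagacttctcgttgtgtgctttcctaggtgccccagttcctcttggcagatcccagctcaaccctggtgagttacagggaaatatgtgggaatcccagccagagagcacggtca
Cd83 -9.7 kb, chr13:43775319-43775518: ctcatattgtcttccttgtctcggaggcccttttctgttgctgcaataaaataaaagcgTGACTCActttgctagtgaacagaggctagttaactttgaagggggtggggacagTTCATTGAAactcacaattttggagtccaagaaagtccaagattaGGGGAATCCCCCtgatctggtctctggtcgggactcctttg
Cd274 +17.7 kb, chr19:29385039-29385238: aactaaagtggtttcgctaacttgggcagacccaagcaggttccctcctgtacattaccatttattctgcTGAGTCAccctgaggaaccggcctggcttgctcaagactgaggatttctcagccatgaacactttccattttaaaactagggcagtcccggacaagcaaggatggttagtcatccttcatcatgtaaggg
Pdcd1lg2 +8.7 kb, chr19:29419503-29419702: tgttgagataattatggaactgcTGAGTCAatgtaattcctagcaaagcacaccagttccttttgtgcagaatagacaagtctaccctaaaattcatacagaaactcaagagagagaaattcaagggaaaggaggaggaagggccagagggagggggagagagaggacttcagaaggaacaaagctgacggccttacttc
Cd200 +59.0 kb, chr16:45349915-45350114: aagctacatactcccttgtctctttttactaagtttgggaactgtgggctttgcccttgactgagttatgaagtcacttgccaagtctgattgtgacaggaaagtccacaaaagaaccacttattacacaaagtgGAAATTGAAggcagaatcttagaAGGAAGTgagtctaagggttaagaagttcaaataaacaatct
Cd200 +34.8 kb, chr16:45374210-45374409: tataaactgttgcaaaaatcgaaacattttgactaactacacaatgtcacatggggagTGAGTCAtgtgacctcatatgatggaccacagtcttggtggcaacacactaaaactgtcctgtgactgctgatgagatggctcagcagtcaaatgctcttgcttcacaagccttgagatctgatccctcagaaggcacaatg

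The Cd80 sequence holds an NFkB match next to the gene start, and the Cd83 sequence holds 3 overlapping NFkB matches in one run of capitals, an AP-1 match and a GAS match. The Cd86, Cd274, Pdcd1lg2 and Cd200 +34.8 kb sequences hold an AP-1 match, the Icosl sequence a PU.1 match, and the Cd200 +59.0 kb sequence a PU.1 and an interferon response match. The Cd40 sequence holds none of the 5 motifs. The Cd86, Cd274 and Pdcd1lg2 sites lie inside the RefSeq gene and are annotated as intron in the tables. The Cd83 and Cd40 sites lie upstream, and the Icosl and both Cd200 sites downstream. For Cd80 the tables' TSS lies inside the RefSeq gene, which starts at -1503 bp from it (chr16:38457430-38495958, + strand), so that the site named -1.6 kb is at the RefSeq start, and for Cd274 (chr19:29362107-29388095, + strand) the RefSeq start is at -5331 bp from the tables' TSS. Cd274 and Pdcd1lg2 (chr19:29410919-29472927, + strand) are neighbours on chromosome 19.

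The 70 libraries held 4.30 to 21.5 M tags (M for 1e6, median 13.7), of which 2.79% to 52.8% lay in the regions of their table. Levels are given as tags per 10 M of the total in the table header, and a region was called changed at an adjusted p under 0.05 in edgeR's quasi-likelihood test with more than a 2-fold difference. Scaling to header totals left the median of all regions off 0 in several comparisons, by 1.46 for p65 and 0.65 for p300 on the log2 scale with KLA, by -0.41 for PU.1, by -1.20 for NCoR with ERKi and by 1.84 for p300 at day 4. TMM scaling (edgeR's trimmed mean of M-values) brought these medians to 0.24, 0.14, 0.00, -0.04 and 0.22, and counts that depend on it are given both ways. Of 8 macrophage marker genes, 8 had a promoter region in the PU.1 table and 6 in the H3K27ac table of WT and NKO, where Csf1r and Adgre1 had none. Their summed tags per 10 M were 1923 with Veh and 1807 with KLA for PU.1, and 298 and 398 for H3K27ac in WT. Of the other markers in that H3K27ac table, 0 of 5 B cell, 0 of 5 T cell and 0 of 4 neutrophil markers had one, 1 of 5 dendritic cell markers did, at 0.885 with Veh and 0.629 with KLA, and 2 of 7 osteoclast markers did, at 109 and 56.9. For PU.1 the sums with Veh and KLA were 497 and 257 for 4 of 7 osteoclast markers, 242 and 195 for 1 of 5 dendritic cell markers, 175 and 74.8 for 2 of 4 neutrophil markers, 33.8 and 59.0 for 1 of 5 B cell markers and 26.2 and 27.2 for 1 of 5 T cell markers. The part of these shifts in the results was not tested.

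Regions of the 8 factors in the Veh and KLA tables whose centres lay within 250 bp of each other were joined into 142 sites, of which 64 were held by 5 or more factors and 21 by all 8, while 42 were held by 1. Cd83 had 25 sites with 13 held by at least 5 factors, Cd200 25 with 10, Pdcd1lg2 24 with 12, Cd274 21 with 8, Cd86 17 with 8, Cd40 14 with 5, Icosl 11 with 7 and Cd80 5 with 1. By position 76 sites lay inside the genes, 34 downstream and 32 upstream, and the loci differed: 17 of 25 Cd200 sites and 8 of 11 Icosl sites were downstream, 20 of 21 Cd274 sites inside, and 11 of 25 Cd83 sites upstream. NCoR and HDAC3 were both present at 74 sites, of 82 held by NCoR and 82 by HDAC3. Of the 64 sites with at least 5 factors p65 held 59, PU.1 45 and Fosl2 53, and 19 of them held p65 without PU.1.

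Motif matches were looked for in 200 bp at each site centre. An NFkB match was in 12 of the 142 sites, an AP-1 match in 27, a PU.1 match in 27, an interferon response match in 18 and a GAS match in 21. Read against all regions of the same table, NFkB was in 9 of 84 p65 regions of the 8 genes (10.7%, against 7.61% of all p65 regions), AP-1 in 14 of 56 Fosl2 regions (25% against 28.8%) and PU.1 in 20 of 59 PU.1 regions (33.9% against 35.5%). Over the 8 tables, which share many sites, GAS was in 15% to 22.4% of the regions of the 8 genes, highest for ERK1, against 6.67% to 7.97% of all regions, and NFkB in 6.12% to 11.9% against 3.18% to 7.61%. The interferon response element was in 7.14% to 16.7% against 9.95% to 13%. These shares are descriptions of letters in a window and were not tested.

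**Figure D1:**
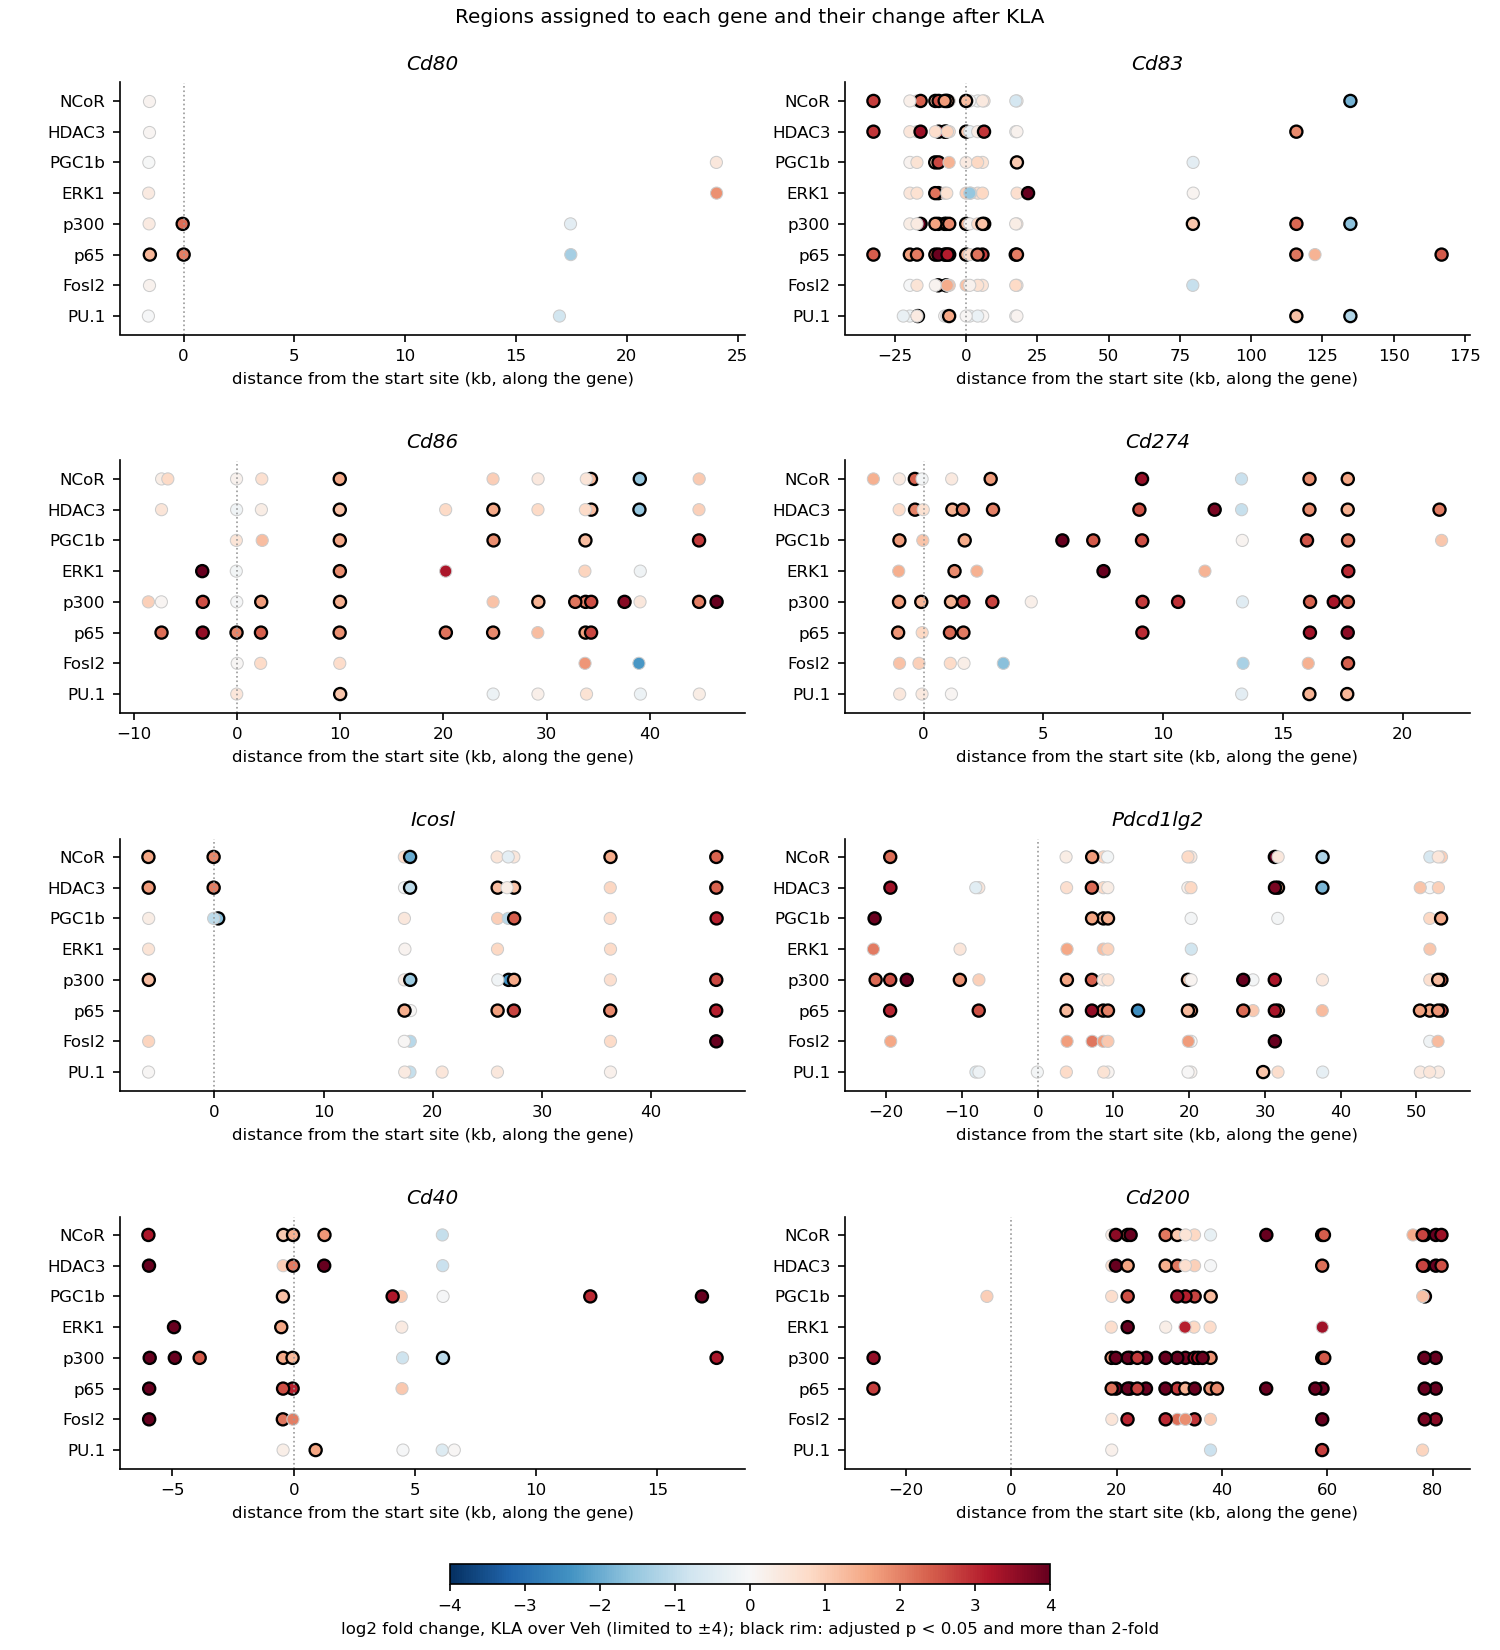
Position of each factor's regions at the 8 genes, with the distance from the tables' TSS in kb on the x axis and 1 row per factor. Colour gives the log2 fold change of KLA over Veh, limited to 4 in either direction, and a black rim marks a call; most Cd200 and Cd274 regions are red and rimmed, while Cd86, Icosl, Cd83 and Pdcd1lg2 hold regions of both directions.

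KLA raised more of these regions than it lowered for each of the 8 factors, and the loci did not move as one. By header totals, 286 of 576 tested regions rose over the 8 factor comparisons and 15 fell, against 26.6% and 11.1% of all regions of those tables. Under TMM 21.5% of all regions rose and 15.4% fell, and the members' TMM shares are given by gene below. Since the factors differ in their share of all regions that rose, from 4.53% for PU.1 to 57.0% for p65, and the genes hold them in different proportions, each gene's share is given beside the share of all regions at the same mix of factors. It was 74.0% at Cd200 (71 of 96, beside 30.1%), 64.1% at Cd40 (25 of 39, beside 25.8%), 60.6% at Cd274 (43 of 71, beside 25.5%), 43.7% at Cd86 (31 of 71, beside 28.3%) and 42.4% at Cd83 (53 of 125, beside 25.9%). It was 38.8% at Pdcd1lg2 (40 of 103, beside 28.0%), 35.7% at Icosl (20 of 56, beside 25.2%) and 20.0% at Cd80 (3 of 15, beside 28.1%). Under TMM the shares ran from 70.8% at Cd200 (beside 23.3%) to 6.67% at Cd80. Cd80 lay below the share of all regions at its mix of factors, as by header totals, and every other gene lay above. Icosl, at 25% beside 21.2%, and Cd86, at 29.6% beside 22.5%, lay closer to that share than by header totals. Counts for a single factor were small, and an order of the genes within a factor was not tested. NCoR rose at 12 of 17 Cd200 and 4 of 5 Cd40 regions (23.4% of all regions). HDAC3 rose at 9 of 13 Cd200 and 9 of 12 Cd274 regions (27.5% of all), and PGC1b at 6 of 9 and 7 of 10 (16.4% of all). ERK1 rose at 1 of 7 Cd200 and 2 of 3 Cd40 regions (10.3% of all). By header totals no Cd200, Cd274 or Cd80 region fell, whereas 5 did at Icosl, 4 at Cd83, 3 at Pdcd1lg2, 2 at Cd86 and 1 at Cd40, and under TMM 2 fell at Cd274, 1 at Cd80 and 0 at Cd200. The same site is counted once for each factor that holds it. The regions of each factor are merged peaks of Veh and KLA, at the members as at all regions. A region listed through KLA alone had its direction set by that listing. These counts and shares, and those by factor that follow, are therefore partly set by the listing and do not test a direction.

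Among the coregulators, NCoR rose at 38 of 84 regions and fell at 4, against 23.4% of all NCoR regions higher and 16.7% lower. HDAC3 rose at 41 of 84 and fell at 3 (all regions 27.5% and 11.3%), and PGC1b rose at 31 of 60 and fell at 1 (all regions 16.4% and 6.35%). p300 rose at 70 of 100 and fell at 4 (all regions 42.1% and 12.9%). ERK1 rose at 11 of 49 and fell at 0 (all regions 10.3% and 2.53%). The members' median log2 fold change was 1.01 for NCoR, 1.00 for HDAC3, 1.19 for PGC1b, 1.87 for p300 and 0.91 for ERK1, against 0.10, 0.27, 0.06, 0.65 and 0.26 over all regions. Leaving out 1 library moved some of these totals by more than 1.5 times: NCoR had 22 calls without KLA replicate 1 and 24 without KLA replicate 2, HDAC3 20 without Veh replicate 1 and 17 without Veh replicate 2, PGC1b 18 without Veh replicate 1 and 19 without Veh replicate 2, and ERK1 2 without KLA replicate 1 and 3 without KLA replicate 2.

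Among the transcription factors, p65 rose at 74 of 84 regions and fell at 1, against 57.0% of all p65 regions higher and 5.43% lower. With TMM scaling p65 rose at 34 and fell at 3, against 27.6% of all regions higher and 21.3% lower, with a median of 0.99 over the members and 0.24 over all regions. p300 under TMM rose at 57 and fell at 6, against 32.7% higher and 23.9% lower. Fosl2 rose at 13 of 56 and fell at 0 (all regions 11.4% higher and 4.19% lower), or at 24 with 1 lower under TMM (all regions 19.0% higher and 9.68% lower). The number of Fosl2 calls depended strongly on which library was left out. The Fosl2 KLA libraries differed, with 4.30 M tags and 16.4% in regions for replicate 1 and 8.55 M and 32.3% for replicate 2. Those of HDAC3 differed too, with 17.1 M and 31.2% for replicate 1 and 5.69 M and 46.5% for replicate 2. The part of these differences in the calls of either factor, and in their loss without a Veh library, was not tested. PU.1 rose at 8 of 59 and fell at 2, against 4.53% of all PU.1 regions higher and 21.7% lower, and under TMM it rose at 11 and fell at 0, against 9.13% and 10.6%.

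**Figure D2:**
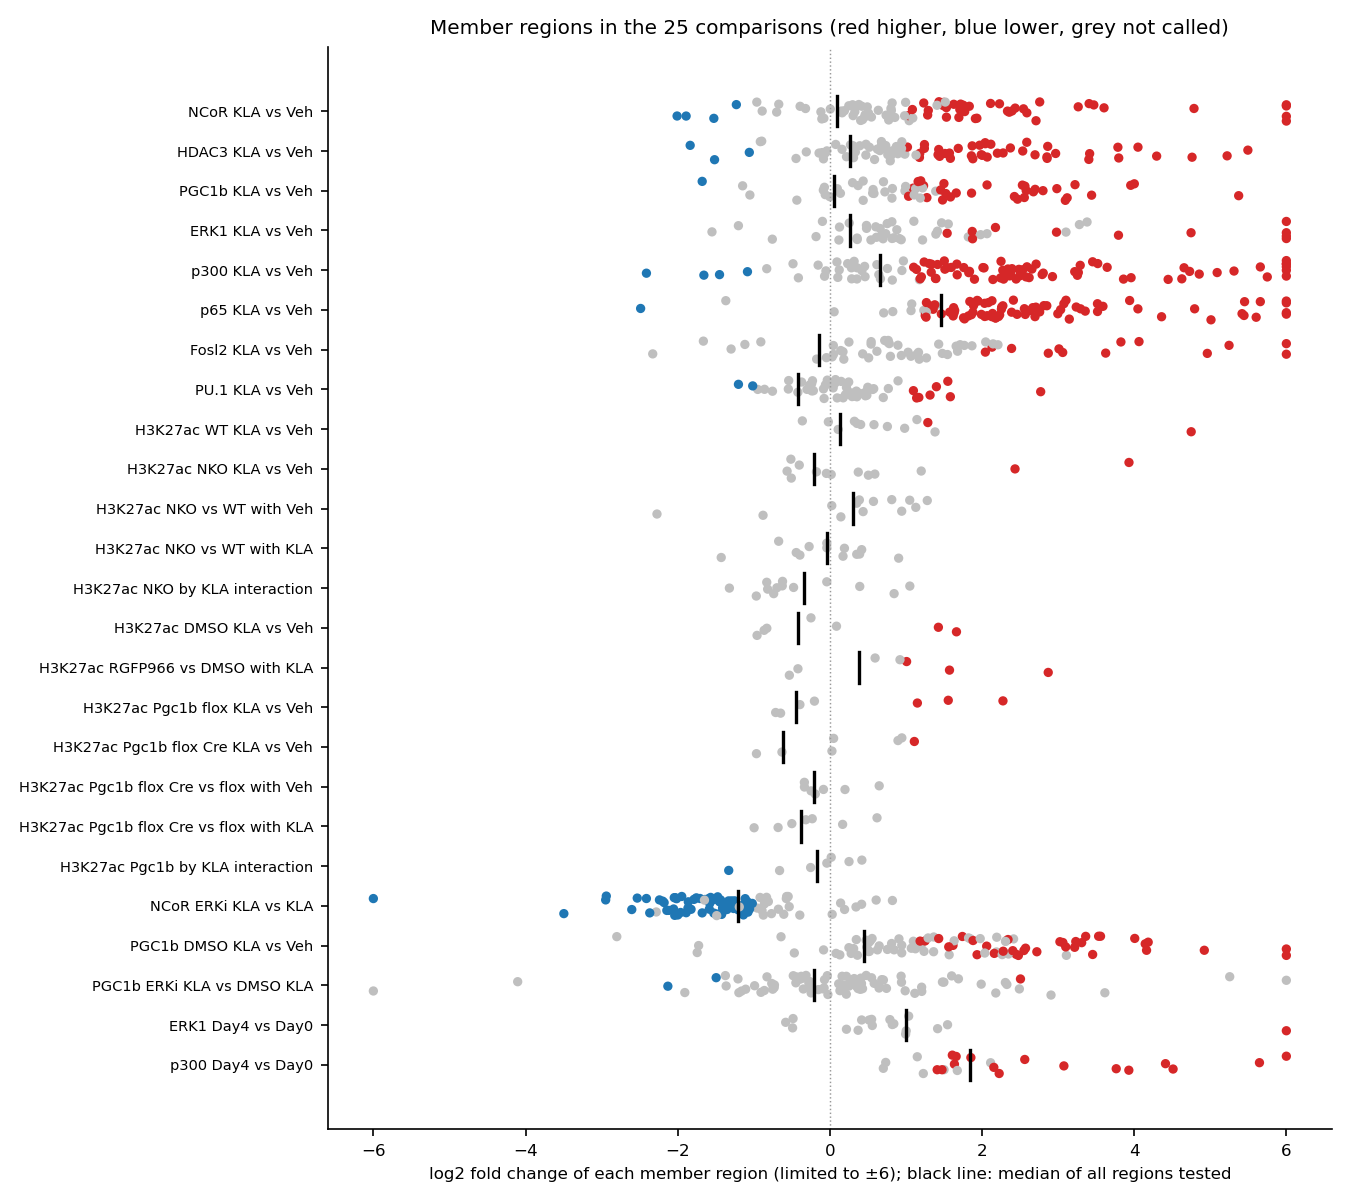
Log2 fold change, limited to 6 in either direction, of every region of the 8 genes in 25 comparisons; red and blue points are called higher and lower, grey points are not called, and the black line is the median of all regions in that table. With KLA the points lie mostly above the line for the 8 factors, while for NCoR with ERKi the points and the line lie below 0 together.

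The sites followed next are those printed above and others that, apart from each gene's strongest and promoter regions, were chosen after their values were seen. Fold changes are log2 of KLA over Veh with their SE. Here and in the comparisons below, the factor regions are merged peaks of the groups of a table. A region with almost no tags in a group was therefore listed through another group, and its direction was set by that listing. Ratios, floors and p-values at such regions describe the size of the difference and do not test its direction. The direction of each called change with KLA below held under TMM and under DESeq2.

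At Cd80, the CD28 and CTLA4 ligand, a single site was shared by all 8 factors, the one at the RefSeq start (-1.6 kb), and it changed little with KLA except for p65. PU.1 had 364 and 367 tags per 10 M with Veh and 353 and 349.9 with KLA, a log2 change of -0.06 (SE 0.081, edgeR adjusted p = 0.53). NCoR had 134 and 169 with Veh and 164 and 172 with KLA, and the 4 libraries overlapped between the groups. HDAC3, whose groups also overlapped, had 219 and 186 with Veh and 162 and 270.5 with KLA. The log2 fold changes of NCoR, HDAC3, PGC1b, ERK1, p300 and Fosl2 there lay between -0.00 and 0.36, none of them called. p65 had 81.4 and 72.7 tags per 10 M with Veh and 172 and 215 with KLA, a called change of 1.33 (SE 0.232, edgeR adjusted p = 5.3e-04) that was 0.09 under TMM scaling. At the TMM scale the PU.1 change was 0.36, those of HDAC3 and p300 were -0.23 and -0.16, and none was called.

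The tables' own Cd80 TSS, which is inside the RefSeq gene, held regions of p300 and p65 alone among the Veh and KLA tables. p300 there had 3.76 and 6.57 tags per 10 M with Veh and 28.6 and 20.5 with KLA, a change of 2.24 (SE 0.525, edgeR adjusted p = 0.0015), and p65 had 9.63 and 0.932 with Veh and 22 and 22.6 with KLA. Both rose, and neither call stood without each library: the p300 adjusted p was 0.082 without KLA replicate 1, and that of p65 0.26 and 0.28 without KLA replicate 1 and 2. The p65 change was 0.80, not called, under TMM. The NCoR table that includes ERKi has a region there too, with 16.7 and 10.6 tags per 10 M with Veh, 18.6 and 18.0 with KLA and 31.3 and 33.6 with ERKi and KLA, a change of 0.82 (SE 0.49, edgeR adjusted p = 0.16) over KLA.

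At Cd86, the other CD28 and CTLA4 ligand, sites inside the gene moved in opposite directions. At +39.0 kb NCoR had 190.0 and 200.1 tags per 10 M with Veh and 64 and 71.2 with KLA and fell, with a change of -1.52 (SE 0.216, edgeR adjusted p = 4.3e-04). HDAC3 fell with it, from 260.4 and 244 to 92.6 and 82.5, a change of -1.52 (SE 0.372, edgeR adjusted p = 2.5e-04), whose adjusted p was 0.17 and 0.14 without Veh replicate 1 and 2. p300, which had 79 and 70.3 with Veh and 101 and 104 with KLA, was 0.46 (TMM -0.06) and was not called. Fosl2 had 116 and 56.6 with Veh and 16.3 and 17.5 with KLA, a change of -2.33 (SE 0.9, edgeR adjusted p = 0.059) that was called under TMM and DESeq2 (adjusted p = 0.016 and 0.0020). PU.1, at its highest Cd86 site, had 207 and 194 with Veh and 175 and 166 with KLA, with -0.24 by header totals and 0.18 under TMM.

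At +10.0 kb, which all 8 factors held, 7 of them rose. NCoR had 65.7 and 65.9 tags per 10 M with Veh and 195 and 177 with KLA, a change of 1.50 (SE 0.222, edgeR adjusted p = 5.6e-04), and PU.1 had 37.8 and 39.8 with Veh and 85.7 and 80.3 with KLA, a change of 1.10 (SE 0.181, edgeR adjusted p = 4.2e-08). In both the KLA libraries lay above the Veh libraries. HDAC3 changed by 1.18, PGC1b by 1.52, ERK1 by 1.87, p300 by 1.42 and p65 by 1.82, and Fosl2 by 0.72 without a call. Under TMM the HDAC3, p300, p65 and ERK1 changes (0.93, 0.90, 0.60 and 1.65) were no longer called. The calls of HDAC3 were lost without either Veh library (adjusted p = 0.28 and 0.51), that of PGC1b without Veh replicate 1 (0.16), and that of ERK1 without KLA replicate 1, KLA replicate 2 or Veh replicate 1 (0.073 to 0.16). The site at +33.8 kb, also held by all 8, had the most p300 of the locus, with 51.4 and 64.4 with Veh and 243 and 228 with KLA, a change of 2.03 (SE 0.179, edgeR adjusted p = 9.6e-08).

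At Icosl, the ICOS ligand, 10.2 kb long and with most of its sites downstream, a pair of distal sites moved in opposite directions. At +17.9 kb NCoR had 75.3 and 93 tags per 10 M with Veh and 19.4 and 22.1 with KLA and changed by -2.01 (SE 0.336, edgeR adjusted p = 0.001). p300 had 78.4 and 74.3 with Veh and 26.1 and 29.7 with KLA, a change of -1.45 (SE 0.264, edgeR adjusted p = 1.8e-04). For both, all KLA libraries lay below all Veh libraries. HDAC3 changed by -1.06 (SE 0.402, edgeR adjusted p = 0.023), a call lost without either Veh library (adjusted p = 0.42 and 0.34) or, by its size, without KLA replicate 1. PU.1, with 282 and 304 with Veh and 148 and 155 with KLA, changed by -0.95 (SE 0.0943, edgeR adjusted p = 3.1e-17), just under the 2-fold limit, or -0.53 under TMM. p65 there had 18.4 and 34.5 with Veh and 24 and 30.8 with KLA, with 0.06 by header totals and -1.15, a call in the lower direction, under TMM. The adjoining site at +17.4 kb, held by all 8 factors, was not called for 7 of them, with NCoR at 70.5 and 105 with Veh and 131 and 161 with KLA (0.74), and was called for p65 at 1.47 (0.23, not called, under TMM).

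At +46.0 kb all 6 factors present rose. NCoR had 22.7 and 10.6 tags per 10 M with Veh and 89.1 and 82.3 with KLA, a change of 2.36 (SE 0.393, edgeR adjusted p = 0.001), and p65 had 7.88 and 12.1 with Veh and 74.8 and 97.8 with KLA, a change of 3.10 (SE 0.409, edgeR adjusted p = 8.1e-05). The KLA libraries were above the Veh libraries for each factor. HDAC3 rose by 2.37, PGC1b by 3.10 and p300 by 2.66. Fosl2, with 1.41 and 0 with Veh and 41.9 and 88.8 with KLA, was 122-fold higher (95% counting interval 21.3 to 4854). Intervals and floors of this kind cover counting error only, and not the way such regions came to be listed. The HDAC3 call was lost without Veh replicate 2 (adjusted p = 0.055) and the Fosl2 call without Veh replicate 1 or 2 (0.061 and 0.24). p300 fell at +26.9 kb, with 37 and 39.4 with Veh and 4.6 and 9.73 with KLA, a change of -2.41 (SE 0.456, edgeR adjusted p = 2.6e-04).

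At Cd40, the receptor of CD40 ligand, the upstream site at -6.0 kb went from near 0 tags with Veh to clear occupancy with KLA for all 5 factors that held it in the Veh and KLA tables. p65 had 2.63 and 0.932 tags per 10 M with Veh and 149.6 and 205 with KLA, a change of 6.54 (SE 0.47, edgeR adjusted p = 1.7e-06). p300 had 0.627 and 3.94 with Veh and 96.7 and 87.6 with KLA, a change of 5.31 (SE 0.452, edgeR adjusted p = 6.2e-08). Neither factor had more than 3.94 tags per 10 M in a Veh library. HDAC3, with 0.727 and 1.11 with Veh and 35.8 and 59.7 with KLA, was 44.3-fold higher (95% counting interval 14.7 to 219). Fosl2, listed at 0 in both Veh libraries, had 44.2 and 147 with KLA and was at least 62.5-fold higher, with a floor of 3 tags over the group. The KLA libraries of NCoR, at 25.1 and 45, lay above those of Veh, at 7.17 and 0, a change of 3.26 (SE 0.81, edgeR adjusted p = 0.0079). The NCoR call was lost without KLA replicate 2 (adjusted p = 0.28) and the Fosl2 call without Veh replicate 1 or 2 (0.056 and 0.075). The Veh and KLA tables of PU.1, PGC1b and ERK1 had no region there, while the PGC1b table with DMSO and ERKi, described below, had one.

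The strongest Cd40 site lay at -0.4 kb, was held by all 8 factors and already had tags with Veh. NCoR had 109 and 144 tags per 10 M with Veh and 264 and 253 with KLA, a change of 1.03 (SE 0.205, edgeR adjusted p = 0.0025), and p65 had 57.8 and 54.1 with Veh and 313 and 352 with KLA, a change of 2.57 (SE 0.215, edgeR adjusted p = 4.0e-06). PU.1, with 150.0 and 158 with Veh and 189.7 and 184 with KLA, changed by 0.28 (0.69 under TMM) and was not called. HDAC3 was at 0.99 and not called, and PGC1b, ERK1, p300 and Fosl2 rose by 1.19, 1.54, 1.50 and 2.13. Leaving out 1 library ended the calls of NCoR (KLA replicate 1 or Veh replicate 1), PGC1b (either Veh library), ERK1 (KLA replicate 1 or either Veh library) and Fosl2 (KLA replicate 2 or either Veh library), and TMM that of p300 (0.99).

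At Cd83, the activation marker of antigen-presenting cells, NCoR, HDAC3, p300 and p65 rose at the upstream sites at -9.7 and -7.0 kb, while the NCoR region with the most tags over both groups, inside the gene, was not called. At -9.7 kb, whose sequence holds the overlapping NFkB matches, NCoR had 81.3 and 118 tags per 10 M with Veh and 641 and 523 with KLA, a change of 2.55 (SE 0.22, edgeR adjusted p = 4.8e-05). HDAC3 had 77.8 and 65.8 with Veh and 426 and 702 with KLA, a change of 2.97 (SE 0.422, edgeR adjusted p = 6.4e-11). p65 had 23.6 and 18.6 with Veh and 331 and 323 with KLA, a change of 3.94 (SE 0.25, edgeR adjusted p = 9.3e-07). All 7 factors that held the site were called higher, with PGC1b at 2.67, ERK1 at 3.79, p300 at 2.49 and Fosl2 at 2.04, and PU.1 had no region. The HDAC3 call was lost without either Veh library (adjusted p = 0.054 and 0.073), as was that of Fosl2 (0.95 and 0.98). At -7.0 kb p65, with 2.63 and 0 with Veh and 168 and 192 with KLA, was 132-fold higher (95% counting interval 45.1 to 644), and NCoR had 3.58 and 3.53 with Veh and 109 and 94.1 with KLA, a change of 4.79 (SE 0.442, edgeR adjusted p = 6.0e-05). PU.1 at this site had 115 and 100.2 with Veh and 90.9 and 92.4 with KLA, with -0.24 (TMM 0.18) and no call.

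At +4.1 kb, the NCoR and HDAC3 region of the locus with the most tags over both groups, NCoR had 406 and 479 tags per 10 M with Veh and 441 and 382 with KLA, and the groups overlapped (-0.11). Among the 8 factors there, p65 alone was called, at 2.18 (0.94, not called, under TMM). Far downstream at +134.8 kb the opposite direction was seen: PU.1 had 29 and 32.4 with Veh and 11.1 and 15.3 with KLA, a change of -1.20 (SE 0.257, edgeR adjusted p = 1.7e-05), NCoR fell by 1.89 and p300 by 1.66 on the log2 scale. The NCoR and p300 calls were lost without either KLA library (adjusted p = 0.088 to 0.12), and that of PU.1 passed the 2-fold limit neither under TMM (-0.79) nor without KLA replicate 1.

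At Cd274, which encodes PD-L1, the site at +17.7 kb inside the gene was held by all 8 factors and rose for all 8. NCoR had 98 and 131 tags per 10 M with Veh and 324 and 338 with KLA, a change of 1.53 (SE 0.203, edgeR adjusted p = 3.2e-04). p65 had 22.8 and 24.2 with Veh and 291 and 276 with KLA, a change of 3.59 (SE 0.247, edgeR adjusted p = 1.4e-06). PU.1 had 69.8 and 72.8 with Veh and 167 and 187 with KLA, a change of 1.32 (SE 0.125, edgeR adjusted p = 1.8e-18), beside a median of -0.41 over all PU.1 regions. In each factor both KLA libraries lay above both Veh libraries. ERK1 had 4.72 and 8.09 with Veh and 54.1 and 51.7 with KLA, a change of 2.98 (SE 0.617, edgeR adjusted p = 0.014), and p300 had 52.7 and 50.6 with Veh and 274 and 269.7 with KLA, a change of 2.39 (SE 0.169, edgeR adjusted p = 8.0e-09). HDAC3 rose by 1.43, PGC1b by 2.07 and Fosl2 by 2.39. The calls of HDAC3 and Fosl2 were lost without either Veh library (adjusted p = 0.32 to 0.97), and that of HDAC3 fell under the 2-fold limit without KLA replicate 2.

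The adjoining site at +16.1 kb rose as well, with PU.1 at 49.1 and 57.3 with Veh and 135 and 144 with KLA tags per 10 M (1.40, SE 0.144, edgeR adjusted p = 1.8e-16) and p65 at 18.4 and 28.9 with Veh and 237 and 247 with KLA (3.36, SE 0.276, edgeR adjusted p = 3.6e-06). NCoR, HDAC3, PGC1b and p300 rose there by 1.83, 1.87, 2.53 and 2.37, and Fosl2, at 1.43, was called under TMM and DESeq2 but not by header totals. The HDAC3 call was lost without either Veh library (adjusted p = 0.11 and 0.086). At the tables' TSS, NCoR regions close to each other differed: at -0.4 kb it had 15.5 and 23.5 tags per 10 M with Veh and 97.2 and 101 with KLA, a change of 2.33 (SE 0.338, edgeR adjusted p = 4.9e-04), and HDAC3 rose with it by 1.99 (adjusted p = 0.15 without Veh replicate 2). The NCoR region at -0.1 kb had 96.8 and 107 with Veh and 95.6 and 97.5 with KLA, a change of -0.08 (SE 0.233, edgeR adjusted p = 0.8), and its groups overlapped.

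At Pdcd1lg2, which encodes PD-L2, 17 of 24 sites lay inside the gene, and p65 rose at the sites with the most tags while most coregulators there stayed under the 2-fold limit. At +8.7 kb, held by all 8 factors, PGC1b had 52.9 and 66 tags per 10 M with Veh and 151 and 117 with KLA, a change of 1.16 (SE 0.278, edgeR adjusted p = 0.0052), and p65 had 66.5 and 68.1 with Veh and 295 and 295 with KLA, a change of 2.13 (SE 0.208, edgeR adjusted p = 1.1e-05). NCoR there had 146 and 179 with Veh and 303 and 284 with KLA, with 0.85 under the 2-fold limit, and p300 had 0.42 (-0.10 under TMM). The PGC1b call was lost without either Veh library (adjusted p = 0.27 and 0.11) or, by its size, without KLA replicate 1, and the p65 change was 0.91, not called, under TMM. The adjoining NCoR region at +9.2 kb, which had the most tags of the locus over both groups, had 202 and 307 tags per 10 M with Veh and 246 and 223 with KLA and overlapped between groups (-0.12).

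Further into the gene sites again moved in opposite directions. At +31.3 kb NCoR was listed at 0 in both Veh libraries and had 47 and 58.1 tags per 10 M with KLA, at least 29.8-fold higher. HDAC3 had 2.18 and 6.08 with Veh and 52.2 and 72 with KLA, a change of 3.80 (SE 0.576, edgeR adjusted p = 9.7e-10), and p65 had 10.5 and 10.3 with Veh and 99.5 and 106 with KLA, a change of 3.30 (SE 0.362, edgeR adjusted p = 2.4e-05). All KLA libraries stood above all Veh libraries. At +37.6 kb NCoR had 94.4 and 115 with Veh and 42.9 and 46.3 with KLA, a change of -1.23 (SE 0.276, edgeR adjusted p = 0.0047), and HDAC3 70.6 and 76.3 with Veh and 23.4 and 15.8 with KLA, a change of -1.84 (SE 0.446, edgeR adjusted p = 2.1e-04). The NCoR call was lost without either KLA library (adjusted p = 0.09 and 0.074) and the HDAC3 call without either Veh library (0.052 and 0.074). PU.1 and p300 at that site were at -0.37 and 0.46 (TMM 0.04 and -0.05) and not called.

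Cd200, whose product restrains myeloid cells, had p300 and p65 higher at all 18 regions of each (p65 at 12 under TMM), and its sites lay mostly downstream of the gene. At +59.0 kb, with its PU.1 and interferon response matches, PU.1 had 20.7 and 19.3 tags per 10 M with Veh and 152 and 123 with KLA, a change of 2.77 (SE 0.184, edgeR adjusted p = 1.4e-29). p65 had 6.13 and 2.8 with Veh and 192 and 202 with KLA, a change of 5.42 (SE 0.373, edgeR adjusted p = 1.4e-06). p300 had 2.51 and 0 with Veh and 102 and 102 with KLA, a change of 6.24 (SE 0.496, edgeR adjusted p = 2.9e-08). The KLA libraries of these 3 factors were all far above the Veh libraries. NCoR had 47.8 and 55.3 with Veh and 168 and 181 with KLA, a change of 1.75 (SE 0.237, edgeR adjusted p = 3.5e-04), and HDAC3 and Fosl2 rose by 2.20 and 5.25. The HDAC3 call was lost without Veh replicate 2 (adjusted p = 0.055) and that of Fosl2 without Veh replicate 1 or 2 (0.12 and 0.38).

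At +34.8 kb, whose sequence holds an AP-1 match, p300 and p65 had their highest regions of the locus. p300 had 42 and 17.7 tags per 10 M with Veh and 332 and 328 with KLA, a change of 3.45 (SE 0.245, edgeR adjusted p = 8.2e-09), and p65 had 10.5 and 23.3 with Veh and 263 and 295 with KLA, a change of 4.05 (SE 0.319, edgeR adjusted p = 2.8e-06). NCoR there had 78.9 and 70.6 with Veh and 129 and 135 with KLA, and at 0.82 it did not reach the 2-fold limit, nor did HDAC3 at 0.94. PGC1b and Fosl2 rose by 2.70 and 2.87, the latter not without Veh replicate 1 or 2 (adjusted p = 0.78 and 0.58). NCoR's Cd200 region with the most tags over both groups, at +37.8 kb, had 151 and 167 with Veh and 140.1 and 115 with KLA and changed by -0.32 (SE 0.213, edgeR adjusted p = 0.24).

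Other Cd200 sites had almost no tags with Veh. At +80.6 kb NCoR had 0 and 1.18 tags per 10 M with Veh and 72.1 and 71.9 with KLA, 121-fold higher (95% counting interval 21.5 to 4821). p300 at that site was listed at 0 in both Veh libraries and had 76.7 and 60.0 with KLA, at least 71.3-fold higher. At +25.6 kb p300 was again at 0 with Veh and had 66.5 and 87 with KLA, at least 79.5-fold higher. At +22.1 kb, inside the gene, 7 factors rose, among them ERK1, which was listed at 0 in both Veh libraries and had 32 and 29.9 with KLA, at least 15.5-fold higher. The ERK1 call was lost without KLA replicate 1 or 2 (adjusted p = 0.12 and 0.093), those of HDAC3 and Fosl2 without either Veh library and that of PGC1b without Veh replicate 2.

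**Figure D3:**
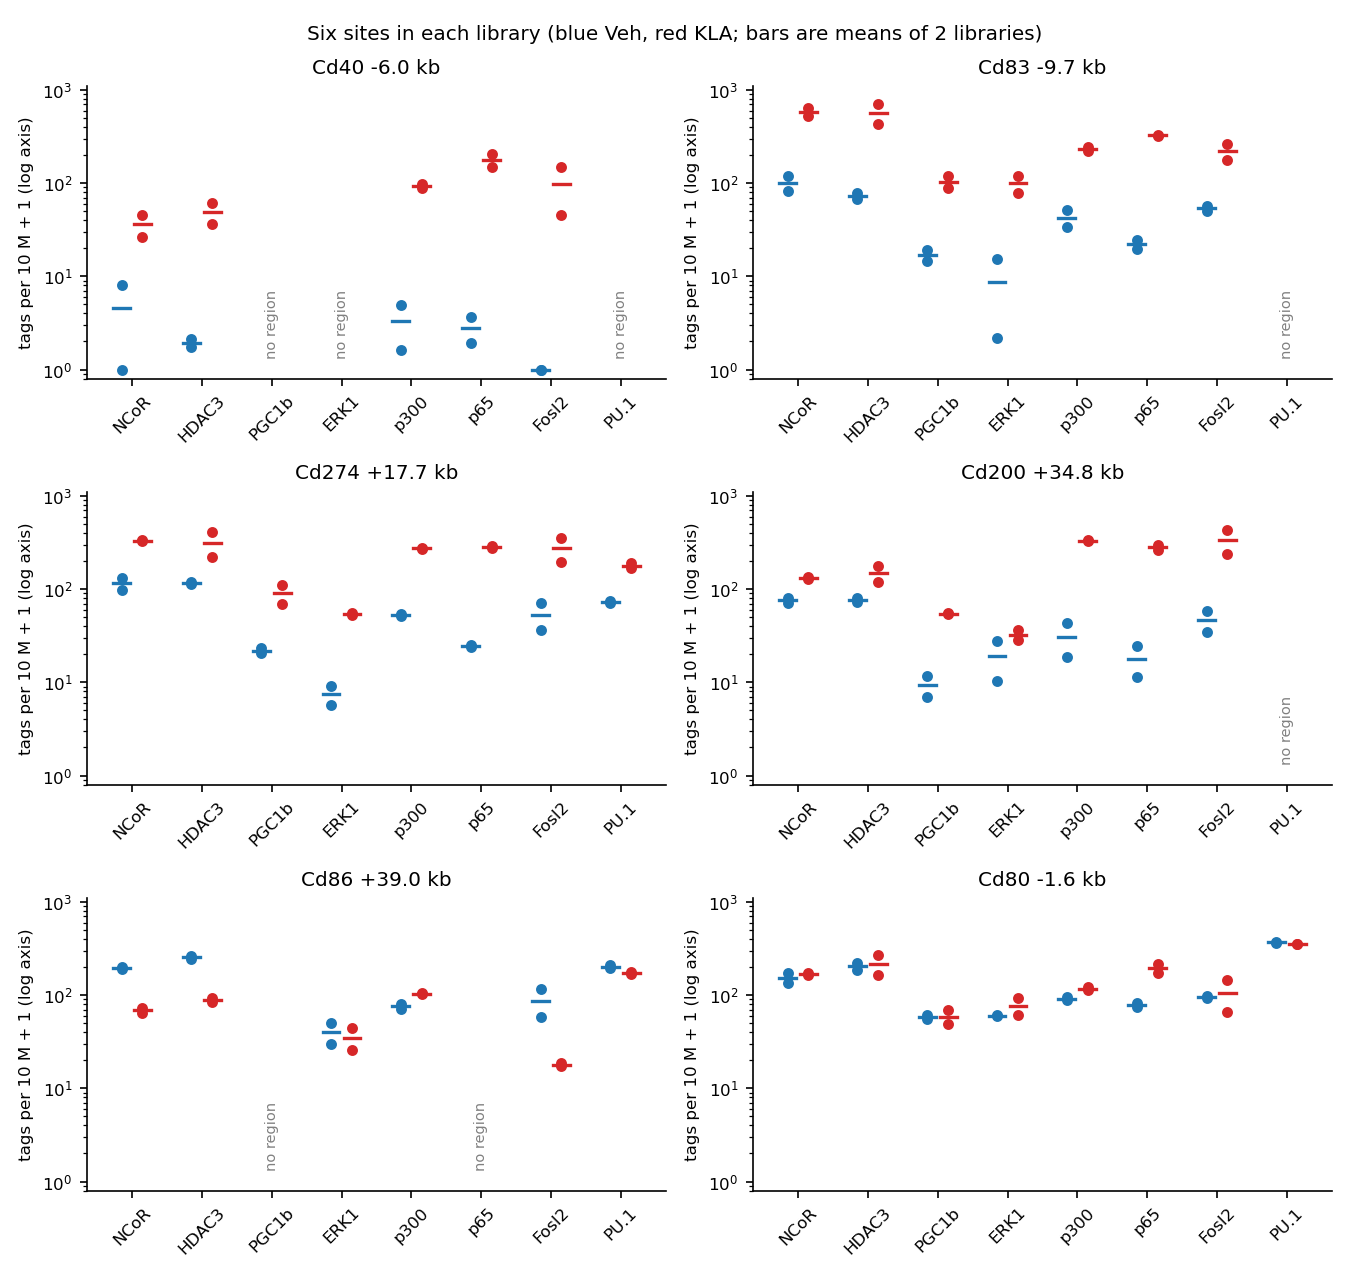
Tags per 10 M plus 1, on a log axis, in each Veh (blue) and KLA (red) library at 6 sites over the 8 factors; points are libraries, bars are group means, and 'no region' marks a factor whose table has none there. The Cd40 -6.0 kb, Cd83 -9.7 kb, Cd274 +17.7 kb and Cd200 +34.8 kb panels show KLA above Veh, the Cd86 +39.0 kb panel shows NCoR and HDAC3 below it, and the Cd80 -1.6 kb panel shows little change but for p65.

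Levels were compared between genes per kb of region, taking in each group the region with the most tags per kb, so that Veh and KLA values of a gene can come from different sites. For NCoR with Veh, Cd83 at +4.1 kb was highest at 1814 to 2139 tags per 10 M per kb, followed by Pdcd1lg2 at 1259.8 to 1337, and Cd200 (663 to 736), Cd80 (608 to 770.4) and Cd86 (671 to 707) overlapped with each other. Icosl was lowest (312 to 464). With KLA, Cd83 at the -9.7 kb site was highest for NCoR (1951 to 2391), followed by Cd274 at +17.7 kb (1328 to 1383), then by Pdcd1lg2 (1151 to 1226) and Cd40 (1135 to 1184), which overlapped, while Cd86 (705 to 778) overlapped with Cd80 (747 to 783) and with Icosl (581 to 713). For p65 with KLA, Cd83 at +5.7 kb was highest (1530.5 to 1634), Cd274 (1348 to 1420.4), Cd40 (1219 to 1368) and Cd200 (1196 to 1340.3) each overlapped with the next, and Cd86 (344 to 419) was lowest. For p300, Cd200 had the lowest mean with Veh (84.1 to 199), overlapping with Cd40 (184 to 281), and was highest with KLA (1555 to 1573). For PU.1 with Veh, Cd80 was highest (1647 to 1662) and Cd40 lowest (652 to 687), overlapping with Cd200 (657 to 706).

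In the table of WT and NKO, 16 H3K27ac regions were assigned to the 8 genes and 13 had enough tags to be tested. The regions of this table varied in width and were another set (24867) than those of the other H3K27ac tables (29767 each). Whether they were ATAC-seq peaks or factor peaks is not known, so that some could have been listed through KLA. With KLA, 2 of the 13 rose in WT (6.49% of all regions higher) and 2 rose in NKO (2.75% of all higher), and none fell. The Cd40 region at +2.3 kb had 1.89 and 0 tags per 10 M with Veh and 12.6 and 37.9 with KLA in WT, 29.2-fold higher (95% counting interval 9.61 to 145). In NKO it had 0 and 1.74 and 14.9 and 16.7, 16.1-fold higher (95% counting interval 5.2 to 80.4). The KLA libraries of both genotypes stood above all Veh libraries. The Cd274 region at +16.2 kb had 15.1 and 15.8 with Veh and 35.2 and 40.7 with KLA in WT, a change of 1.29 (SE 0.343, edgeR adjusted p = 0.0064). In NKO it had 31.7 and 32.5 and 51.5 and 45.1, a change of 0.59 (SE 0.314, edgeR adjusted p = 0.22), and the difference between the genotypes was -0.70 (SE 0.466, edgeR adjusted p = 0.52). The WT call was lost without either Veh library or without KLA replicate 2 (adjusted p = 0.052 to 0.077).

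Between genotypes 0 of the 13 regions were called with Veh (1.00% of all regions), with KLA (0.789%) or for the interaction (0.697%) in edgeR, with 1, 0 and 0 at an unadjusted p under 0.05, and 0 under DESeq2. The Cd40 promoter region had 1.47 and 6.38 in NKO with Veh and 22.3 and 22.9 with KLA, a change of 2.43 (SE 0.572, edgeR adjusted p = 0.0022) that was not called without Veh replicate 1 (adjusted p = 0.062). In WT it had 8.2 and 7.13 and 20.8 and 19.3, a change of 1.38 (SE 0.524, edgeR adjusted p = 0.066). The interaction there was 1.05 (SE 0.785, edgeR adjusted p = 0.57), so that a difference between WT and NKO was not detectable at this depth.

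In macrophages given DMSO, 2 of 7 H3K27ac regions rose with KLA (6.73% of all regions higher), Cd200 +19.1 kb, from 58.1 and 46.2 tags per 10 M with Veh to 154 and 126 with KLA (1.43, SE 0.246, edgeR adjusted p = 4.5e-08), and the Cd86 promoter, from 16.6 and 9.59 to 53.7 and 28.6 (1.66, SE 0.347, edgeR adjusted p = 7.3e-06). RGFP966 with KLA, set against DMSO with KLA, was higher at 3 of the 7 (26.9% of all regions higher). The Icosl region at +17.9 kb, where NCoR, HDAC3 and p300 fell with KLA, had 36.5 and 39.2 with DMSO and Veh, 22.7 and 18.5 with DMSO and KLA and 163 and 142 with RGFP966 and KLA. The RGFP966 libraries stood above all others, a change of 2.87 (SE 0.274, edgeR adjusted p = 2.3e-22) over DMSO with KLA. The Cd86 region at +9.9 kb, where NCoR and HDAC3 rose with KLA, had 20.7 and 16 with DMSO and KLA. With RGFP966 and KLA it had 61.9 and 48.8, a change of 1.57 (SE 0.318, edgeR adjusted p = 4.3e-06). Cd80 -1.6 kb, where NCoR and HDAC3 were not called with KLA, had 97.1 and 75.7 and 199 and 151, a change of 1.01 (SE 0.225, edgeR adjusted p = 3.0e-05). The Cd80 call fell under the 2-fold limit with TMM (0.66) and without DMSO KLA replicate 2 or RGFP966 KLA replicate 1, and 5 regions were called without DMSO KLA replicate 1. The Cd86 +39.0 kb region, where NCoR and HDAC3 also fell, had 35 and 28.6 and 64.5 and 56.9, a change of 0.92 (SE 0.277, edgeR adjusted p = 0.0021) under the 2-fold limit. With 7 regions chosen for being open with Veh, sites that appear with KLA were not measured in this table.

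In PGC1b flox/flox macrophages 3 of 7 regions rose with KLA (5.22% of all regions higher), and in PGC1b flox/flox, LysMCre macrophages 1 of 7 did (4.18%), or 3 under TMM (10.8% of all). The Cd200 region at +19.1 kb, inside the gene, had 14.6 and 16.6 tags per 10 M with Veh and 74.7 and 76.3 with KLA without Cre, a change of 2.28 (SE 0.287, edgeR adjusted p = 2.9e-14). With Cre it had 26.8 and 21.9 and 28.2 and 65.1, a change of 0.95 (SE 0.283, edgeR adjusted p = 0.0017) under the 2-fold limit. The libraries of the KLA group without Cre lay close together, while those with Cre lay apart and the lower one was near the Veh level. The interaction was -1.33 (SE 0.411, edgeR adjusted p = 0.01), the 1 of 7 regions called lower (4.60% of all regions lower). It was -1.14 under TMM (adjusted p = 0.041) and -1.15 under DESeq2 (adjusted p = 0.12), and without Cre KLA replicate 1, Cre Veh replicate 1 or flox Veh replicate 1 it was -0.86, -1.17 and -1.23 (adjusted p = 0.18, 0.10 and 0.053).

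Cd86 +9.9 kb rose in both genotypes, from 6.73 and 15.9 to 30.0 and 19.2 without Cre (1.15, SE 0.437, edgeR adjusted p = 0.016) and from 7.48 and 11.9 to 11.6 and 30.0 with Cre (1.11, SE 0.458, edgeR adjusted p = 0.026). The former call was lost without flox KLA replicate 1 or flox Veh replicate 1 (adjusted p = 0.22 and 0.30), and the latter without Cre KLA replicate 2 or Cre Veh replicate 1 (adjusted p = 0.76 and 0.22). The Cd86 promoter had 26.9 and 21.5 and 66.7 and 76.9 without Cre (1.56, SE 0.273, edgeR adjusted p = 6.1e-08) and 17.5 and 21.2 and 36.8 and 35.2 with Cre. Between the genotypes 0 of 7 regions were called with Veh (0.397% of all regions) or with KLA (7.52%), with 1 and 2 at an unadjusted p under 0.05 and 0 under DESeq2. The Cd86 promoter with KLA came nearest, with a change of -0.996 (SE 0.263, edgeR adjusted p = 6.7e-04) just under the 2-fold limit and -0.60 under TMM.

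**Figure D4:**
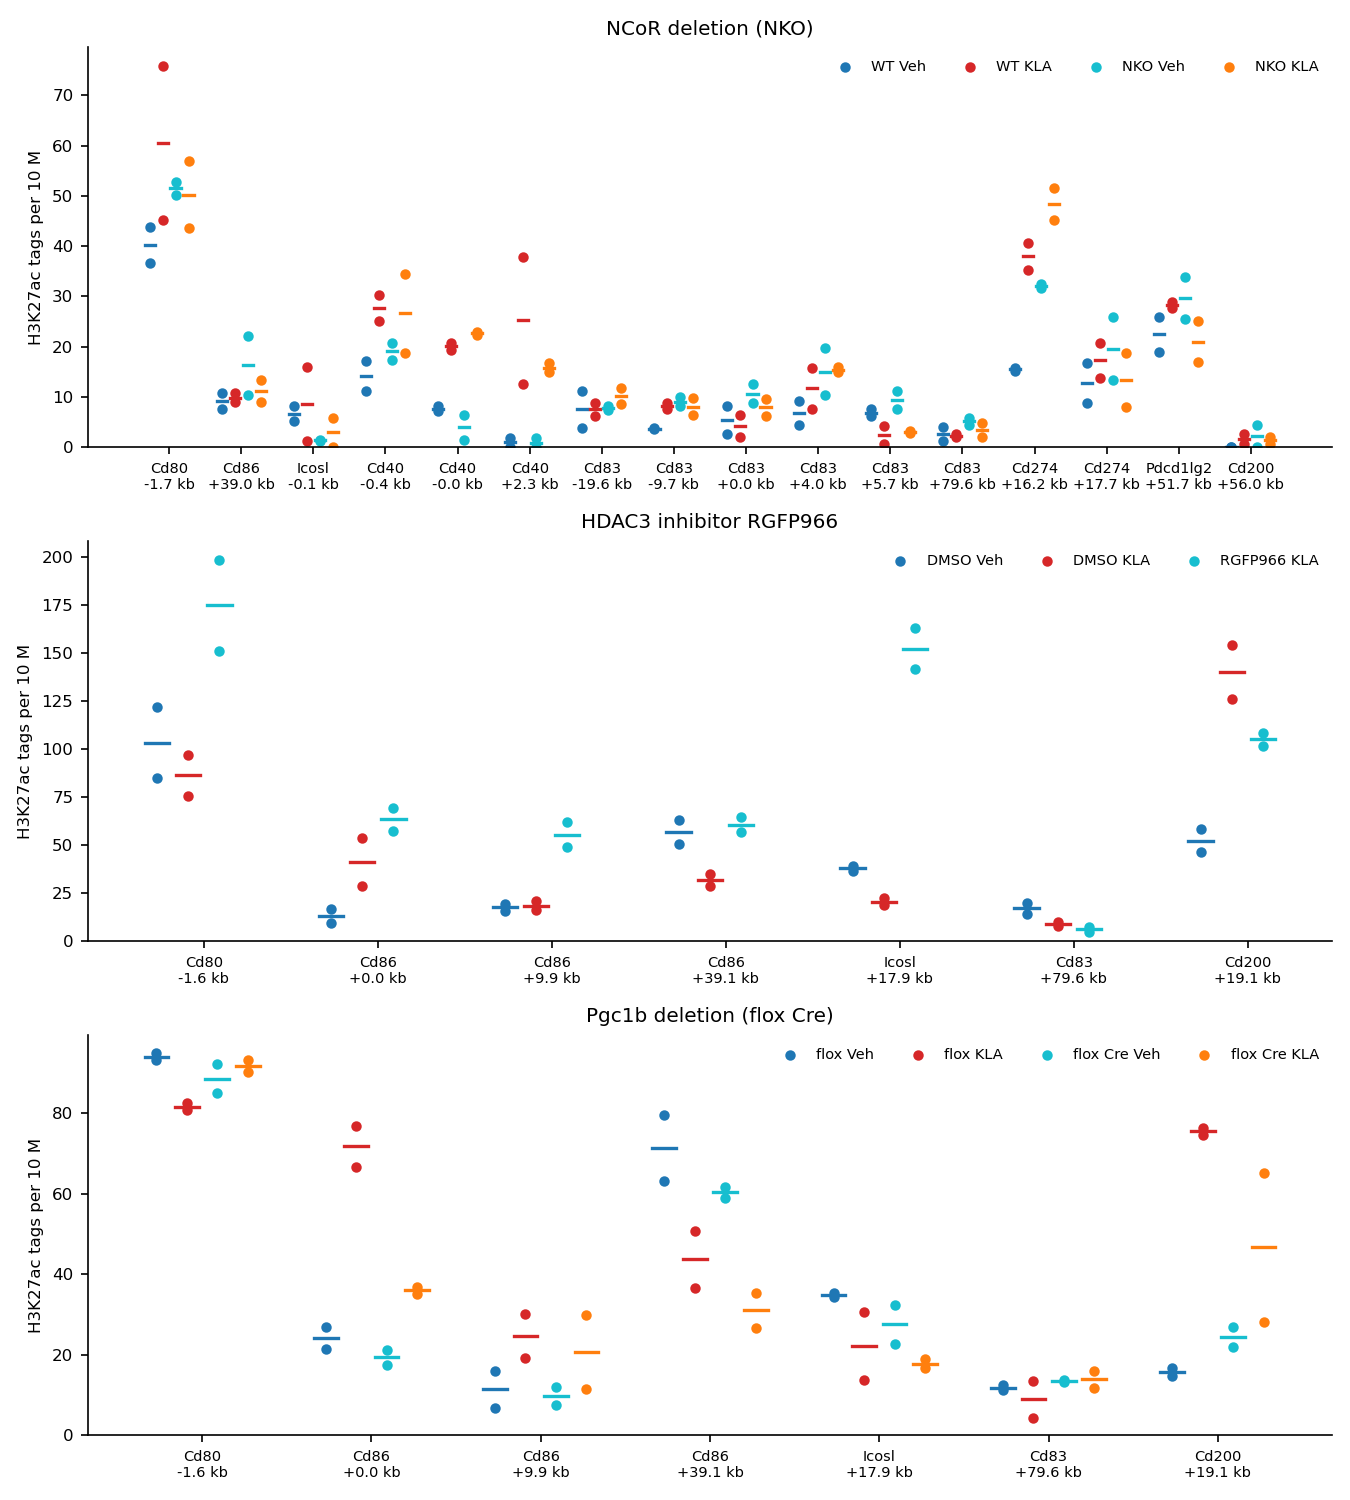
H3K27ac in tags per 10 M, each point a library, at the regions of the 8 genes in the table of WT and NKO, in that of DMSO and RGFP966, and in that of PGC1b flox/flox without and with LysMCre. Icosl +17.9 kb stands out with RGFP966 at 142 and 163, and Cd200 +19.1 kb reaches 74.7 and 76.3 with KLA without Cre and 28.2 and 65.1 with Cre.

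With the ERK inhibitor, NCoR was lower at 62 of 89 regions and higher at 0, against 48.6% of all regions lower, and the members' median of -1.43 lay near the -1.20 of all regions. Under TMM 2 regions were lower and 2 higher, against 3.38% and 3.45% of all regions. The NCoR libraries with Veh and KLA carry an earlier date in their labels than those with ERKi, and no NCoR library had DMSO, so that date and inhibitor cannot be told apart. Without KLA replicate 1 or 2, 35 and 32 regions were called. At Cd83 -15.9 kb NCoR had 32.4 and 24.9 tags per 10 M with KLA and was listed at 0 in both ERKi libraries, at least 22.1-fold lower. At Cd200 +19.1 kb it had 107 and 116 with KLA and 32.1 and 23.3 with ERKi and KLA, a change of -2.01 (SE 0.303, edgeR adjusted p = 2.8e-04), or -0.84 under TMM. At the start of Cd80 it had 175 and 183 and 53.3 and 81.9, a change of -1.41 (SE 0.246, edgeR adjusted p = 6.4e-04), or -0.24 under TMM. The called regions Cd274 +16.1 kb and Cd83 -9.6 kb, at -1.14 and -1.08, were at 0.03 and 0.09 under TMM.

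PGC1b with DMSO rose with KLA at 35 of 85 regions and fell at 0, against 16.4% of all regions higher, with a median of 1.63 over the members and 0.45 over all regions, and at 23 under TMM against 8.71% of all regions. The count was 17 without DMSO Veh replicate 1. With ERKi and KLA against DMSO and KLA, 1 region was higher (0.108% of all regions) and 2 were lower (0.178%), with 20 at an unadjusted p under 0.05. The region higher was Cd40 +2.3 kb, with 1.62 and 0 tags per 10 M for DMSO and Veh, 15.8 and 25.3 for DMSO and KLA and 114 and 124 for ERKi and KLA, a change of 2.51 (SE 0.542, edgeR adjusted p = 0.041). The regions lower were Pdcd1lg2 +8.7 kb, with 184 and 229 for DMSO and KLA and 68.8 and 77.6 for ERKi and KLA (-1.49, SE 0.328, edgeR adjusted p = 0.045), and Pdcd1lg2 +53.3 kb, with 148 and 153 and 53.2 and 16.8 (-2.13, SE 0.465, edgeR adjusted p = 0.044). Each of these 3 calls was lost with any 1 of the 4 libraries left out, with an adjusted p of 0.11 to 0.16 at Cd40 and 0.074 to 0.21 at Pdcd1lg2. Under TMM 1 region was higher and 0 lower (0.155% and 0.0804% of all regions), and under DESeq2 6 were higher and 3 lower.

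The Cd40 locus as a whole was looked at after these values were seen. Of its 18 PGC1b regions 17 had a positive log2 fold change with ERKi, 14 had both ERKi libraries above both DMSO KLA libraries, 12 had an unadjusted p under 0.05, and the median was 1.84. The regions are merged peaks of the groups, so that some could be listed through ERKi alone. The region 17157 bp from the TSS held 0 tags with DMSO and KLA and 45 with ERKi and KLA. These counts are therefore partly set by the listing, and regions of the same locus are not replicates. The summed tags per 10 M over the 18 regions were 114 and 134 with DMSO and Veh, 539 and 396 with DMSO and KLA, and 1134 and 1195 with ERKi and KLA. The upstream site at -6.0 kb had 9.87 and 14.9 with DMSO and KLA and 53.2 and 73.7 with ERKi and KLA (2.33, SE 0.716, edgeR adjusted p = 0.14), whereas the strongest region at -0.5 kb had 152 and 64 and 142 and 142 and overlapped (0.42). The medians at the other genes were 0.35 at Cd200, 0.20 at Cd274, 0.05 at Cd80, -0.30 at Cd83, -0.35 at Icosl, -0.36 at Cd86 and -0.38 at Pdcd1lg2, where 4 of 13 regions were positive. The median of all PGC1b regions was -0.20, and a difference between loci was not tested.

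**Figure D5:**
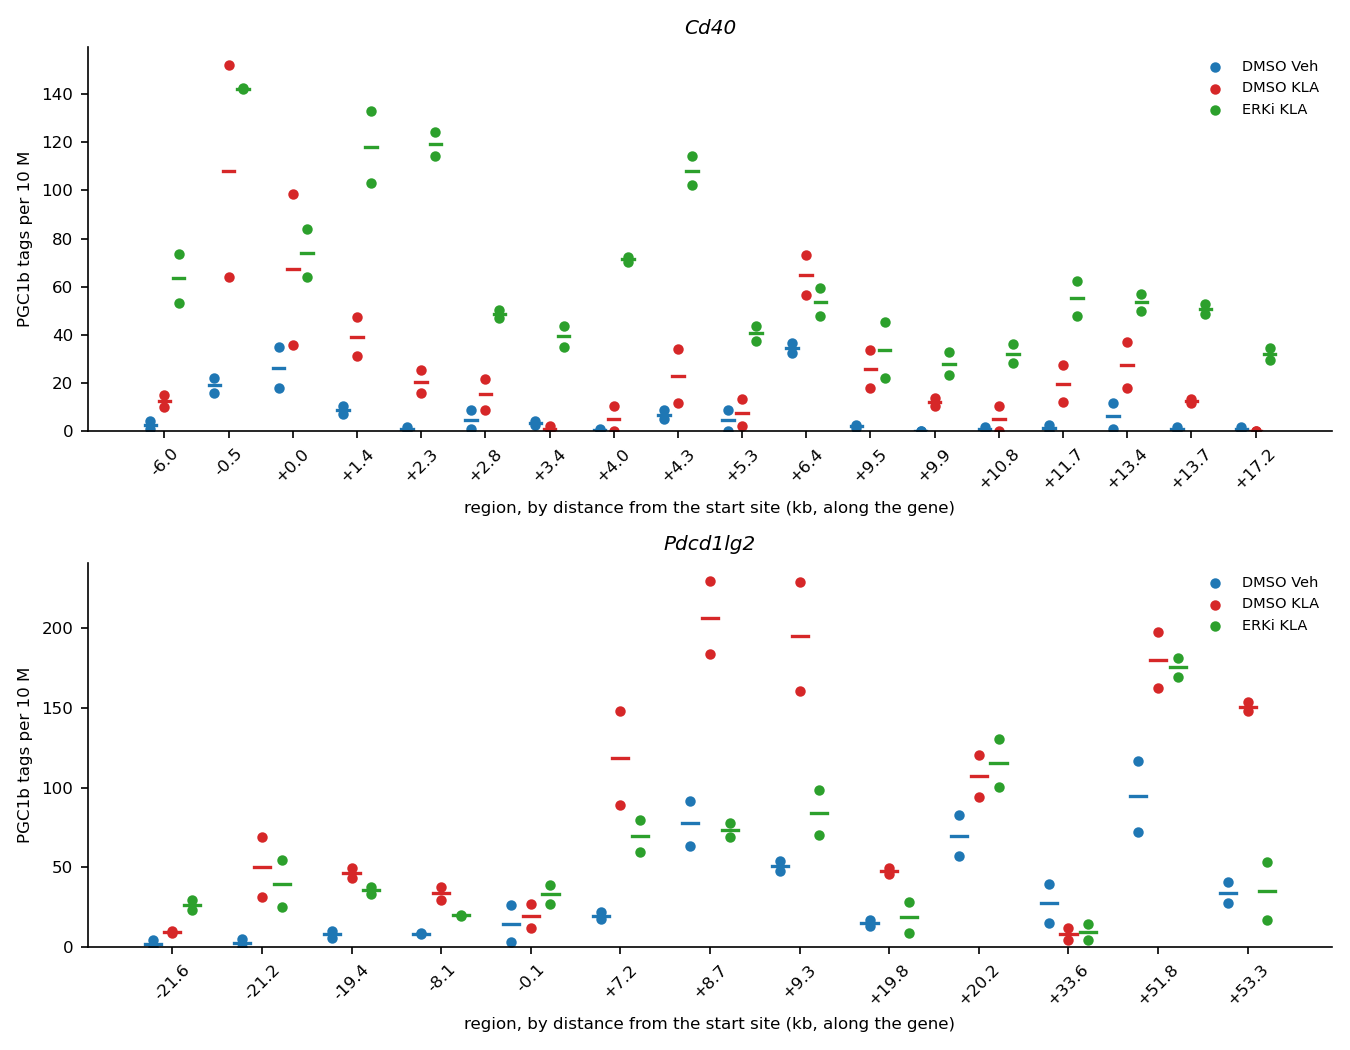
PGC1b in tags per 10 M in each library at the 18 Cd40 and 13 Pdcd1lg2 regions, ordered by position, for DMSO with Veh, DMSO with KLA and ERKi with KLA. At Cd40 the ERKi points lie above both DMSO KLA points in 14 of 18 regions, and at Pdcd1lg2 +8.7 kb they lie at 68.8 and 77.6, below 184 and 229.

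During osteoclast differentiation p300 was higher at day 4 than at day 0 at 16 of 23 regions and lower at 0, against 62.2% of all p300 regions higher. The members' median log2 fold change of 1.85 lay next to the 1.84 of all regions, and under TMM 3 were higher (8.80% of all regions), with medians of 0.24 and 0.22. Without Day4 replicate 1 or replicate 2, 6 regions were called in either case. Cd274 +16.1 kb, a site that also rose with KLA, had 14.1 and 6.39 tags per 10 M at day 0 and 98.8 and 94.1 at day 4, a change of 3.08 (SE 0.477, edgeR adjusted p = 4.4e-04) (1.46 under TMM). Cd83 +115.8 kb had 8.79 and 2.13 and 127 and 76, a change of 3.93 (SE 0.567, edgeR adjusted p = 3.0e-04) (2.32 under TMM). Cd200 +36.3 kb, with 2.64 and 0 and 104 and 93, was 52.9-fold higher (95% counting interval 17.8 to 259), and Cd83 +128.5 kb, listed at 0 at day 0, had 35.2 and 25 at day 4 and was at least 16.3-fold higher.

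ERK1 was higher at day 4 at 1 of 18 regions, against 2.33% of all regions higher, with 3 at an unadjusted p under 0.05, and at 0 under TMM and DESeq2. That region, Cd83 +17.0 kb, was listed at 0 in both day 0 libraries and had 26.4 and 20.3 tags per 10 M at day 4, at least 16.2-fold higher, a call lost without Day4 replicate 1 or 2 (adjusted p = 0.40 and 0.12). Replicate 2 of ERK1 at day 4 is described in its labels as a replicate 3 with another date and without the NCoRWT tag of the other ERK1 libraries there. Summed over promoter regions of an osteoclast marker list (4 of 7 genes with a region), p300 went from 46.4 to 419.6 tags per 10 M and over the macrophage list (6 of 8 genes) from 299.8 to 486, and for ERK1 the sums went from 55.8 to 107 (3 of 7 genes) and from 206 to 428 (7 of 8 genes). Fewer cells of a type and less signal per cell cannot be told apart in bulk samples, and the part of these shifts in the results was not tested.

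Of 34 other genes of the costimulation and checkpoint pathways, the receptors, further ligands and TRAF adaptors, NCoR rose with KLA at 78 of 250 regions (31.2%, against 23.4% of all regions) and fell at 41 (16.4% against 16.7%). HDAC3 rose at 84 of 226 (37.2% against 27.5%) and fell at 30, PGC1b rose at 34 of 182 (18.7% against 16.4%) and fell at 14, and ERK1 rose at 15 of 119 (12.6% against 10.3%) and fell at 6. p300 rose at 107 of 297 (36.0% against 42.1%) and fell at 49 (16.5% against 12.9%). p65 rose at 163 of 243 (67.1% against 57.0%) and fell at 11, Fosl2 rose at 22 of 143 (15.4% against 11.4%) and fell at 8, and PU.1 rose at 17 of 211 (8.06% against 4.53%) and fell at 45 (21.3% against 21.7%). H3K27ac in WT rose at 7 of 53 (13.2% against 6.49%) and fell at 2 (3.77% against 3.72%). NKO differed from WT at 0 of 53 with Veh and with KLA (1.00% and 0.789% of all regions). The interaction of NKO with KLA was called lower at 1 of 53, a Cd47 region (1.89% against 0.67%). RGFP966 with KLA was higher than DMSO with KLA at 25 of 63 regions (39.7% against 26.9%) and lower at 2 (3.17% against 9.53%). With LysMCre in PGC1b flox/flox macrophages, H3K27ac with Veh was lower at 2 of 64 regions, of Nectin2 and Traf6 (3.1% against 0.29%), and higher at 0. With KLA it was higher at 2 (3.1% against 0.702%) and lower at 2 (3.1% against 6.81%). The interaction of PGC1b deletion with KLA was called at 0 of 64, against 0.77% of all regions higher and 4.6% lower. PGC1b with ERKi was higher at 1 of 234 (0.427% against 0.108%), a region of the adhesion molecule gene Icam1, and lower at 0, and p300 at day 4 was higher at 48 of 81 (59.3% against 62.2%).

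The genes whose strongest regions changed most like those of a member were found by Euclidean distance between log2 fold changes with KLA in 9 comparisons (8 factors and H3K27ac in WT), among 5437 genes with all 9 values. The strongest region was taken in each comparison by itself, so that the 9 values of a gene can come from different sites. For Cd80 they were Taok3 (0.57), Tob2 (0.59) and Fgd6 (0.60), and for Cd83 Gm19705 (0.52), Fkbpl (0.54) and Hivep3 (0.62). Cd40 was nearest to Gm6150 (0.69), 1700012D14Rik (0.79) and Mir1893 (0.83), and Cd274 to 1700024I08Rik (0.72), Dynlrb2 (0.90) and Cacng6 (1.14). Icosl was nearest to Cdk14 (0.79), Synj1 (0.83) and Slc38a7 (0.84), Pdcd1lg2 to Rfc5 (0.79), Ppip5k2 (0.80) and Ifitm2 (0.80), and Cd86 to Cyfip2 (1.67), Sdc4 (1.69) and Furin (1.81). The median distance to all genes ran from 2.62 for Cd80 to 5.70 for Cd274. Cd200 lacked an H3K27ac region with enough tags in WT and has no such list.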

How the data were processed

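Tags from ChIP-seq of 8 factors and of H3K27ac were analysed in 70 libraries, 2 per group, grouped by the sample labels; 30 input samples were not analysed here. The authors aligned reads to mm10 with Bowtie2 and, per the labels, used HOMER and DESeq2 (versions not given in the sources used here). The deposited values are raw counts of tags per region, with library totals in the file headers. Factor regions were peaks reproducible between replicates, merged over the groups of a table. For H3K27ac the authors describe counts over either ATAC-seq peaks or factor peaks. Which of these the table of WT and NKO used is not known.

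Each table was fitted on all its regions in edgeR 4.0.16 (R 4.3.3; glmQLFit and glmQLFTest with Benjamini-Hochberg adjustment), with header totals as library sizes and regions under 4 tags (16 for H3K27ac) in every library removed. A call needed an adjusted p under 0.05 and more than a 2-fold difference. The alternatives were TMM scaling, DESeq2 1.42.0, no filter, the replicate number as a block, and leaving out each library. Scripts were tested on simulated data. Depth of 4.30 to 21.5 M tags per library limits precision at regions of few tags; there, ratios carry 95% exact counting intervals, and groups at 0 a floor of 3 tags.

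The members and lists were chosen with earlier results of these data known. The named results, followed under every alternative, were, per table, each member's region with the most tags and its promoter region (nearest the TSS within 2 kb). They also were, per comparison, the called member region of lowest p in each direction, and every member region called in genotype, inhibitor, interaction or day 4 comparisons. The text prints values for a selection of them. Other sites named in the text were chosen after their values were seen. Pattern likeness was the Euclidean distance over 9 log2 fold changes, each at the gene's strongest region in that comparison. Motifs were searched on both strands in 200 bp of the mm10 reference with samtools 1.23.1, and sequences and gene coordinates are from the GRCm38.p6 RefSeq release. Figures were drawn with matplotlib 3.10.9.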

Additional observations from a re-analysis of the deposited data

Results flagged for a closer look

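The change of H3K27ac with KLA at Cd200 +19.1 kb differed between PGC1b flox/flox macrophages without and with LysMCre, by a test of the interaction. The log2 fold change was 2.28 without Cre and 0.95 with Cre, and the interaction was -1.33 (SE 0.411, edgeR adjusted p = 0.010). Both KLA libraries without Cre (74.7 and 76.3 tags per 10 M) lay above both KLA libraries with Cre (28.2 and 65.1). The libraries with Cre and Veh, at 26.8 and 21.9, lay above those without Cre and Veh, at 14.6 and 16.6. The call did not hold under DESeq2 or without some single libraries, as given in the report.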

How the results depend on the processing

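Totals of called member regions that moved by more than 1.5 times were, with TMM and then DESeq2, p65 with KLA (75 calls; 37 and 38), Fosl2 (13; 25 and 25), H3K27ac with KLA in PGC1b flox/flox, LysMCre (1; 3 and 3), NCoR with ERKi (62; 4 and 6), PGC1b with DMSO and KLA (35; 23 and 21), PGC1b with ERKi (3; 1 and 9), ERK1 at day 4 (1; 0 and 0) and p300 at day 4 (16; 3 and 1), and the interaction of PGC1b deletion with KLA (1; 1, and 0 with DESeq2). The replicate block left 5 calls for Fosl2 and 0 for PGC1b with ERKi; the replicate numbers are not known to mark shared animals or batches, the samples were taken as unpaired, and the block changed no other total by more than 1.5 times. Of 448 named results 336 kept their call and direction with TMM and 336 with DESeq2, 448 without the filter and 431 with the block. Sites held by at least 5 factors numbered 63 and 57 with centres joined within 100 and 500 bp.

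Leaving out 1 library gave totals of 22 to 47 for NCoR, 17 to 54 for HDAC3, 18 to 39 for PGC1b, 2 to 12 for ERK1, 60 to 77 for p300, 50 to 78 for p65, 0 to 32 for Fosl2 and 8 to 11 for PU.1 with KLA. For H3K27ac with KLA it gave 1 to 2 in WT, 1 to 2 in NKO, 2 to 3 with DMSO, 2 to 3 in PGC1b flox/flox and 0 to 3 with LysMCre (0 without Cre KLA replicate 2). It gave 2 to 5 for RGFP966, 0 to 1 for the genotype difference with KLA and for the interaction, 32 to 56 for NCoR with ERKi, 17 to 29 for PGC1b with DMSO, 0 to 0 for PGC1b with ERKi, 0 to 1 for ERK1 and 6 to 19 for p300 at day 4. A group left with 1 library was assumed to vary like the others.

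Named results that reversed with TMM and DESeq2 were, for NCoR with ERKi, Cd274 -32 bp (0.15 and 0.16) and +16.1 kb (0.0331 and 0.0486), Cd83 -9.6 kb (0.0917 and 0.105) and -7.5 kb (0.11 and 0.12), Cd86 +33.8 kb (0.0540 and 0.0668), Icosl +17.4 kb (0.0272 and 0.0399), and Pdcd1lg2 +37.6 kb (0.0780 and 0.0908) and +51.8 kb (0.0505 and 0.0636). For p300 at day 4 they were Cd200 +37.8 kb (-0.14 and -0.0225), Cd83 +4.1 kb (-0.21 and -0.10) and Cd83 +5.7 kb (-0.0054 with TMM), and for p65 with KLA Icosl +17.9 kb (-1.15 and -1.12). In these comparisons the median of all regions moved with the scaling; the cause was not tested, here or for the totals above. Regions of few tags limit what these libraries can show.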
